A study of Mus musculus with 26 samples.

Results

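Expression of 8 genes of the primitive endoderm and its laminin was followed across mouse fibroblasts, cells under reprogramming and pluripotent cells. The genes, chosen with earlier results of these data known, were taken by symbol from a deposited expression table of 18198 genes. They were the transcription factor genes Gata4, Gata6, Sox7 and Sox17, the adaptor gene Dab2, and the laminin chain genes Lama1, Lamb1 and Lamc1. All 8 were found in the table, and 6 passed the filter on low values, 10 or more in 2 or more libraries. Sox7 and Sox17 did not pass it, so they have values below but no test in the main fit. A refit without the filter, given at the end, also tested them.

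Primitive endoderm is the layer of the mouse blastocyst that faces the cavity, beside the epiblast from which embryonic stem cells are derived. GATA6 and then GATA4, with the SoxF factors SOX17 and SOX7, drive its programme, FGF signalling through ERK turns it on, and NANOG opposes it. Its cells sort to the surface, use the endocytic adaptor DAB2 and secrete a basement membrane. Laminins, the first component of that sheet, are trimers of an α, a β and a γ chain, and the trimer of α1, β1 and γ1 is the embryonic form. Fibroblasts also make laminins, mostly with other α chains.

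The table covered 26 libraries in 13 groups of 2. MEF were embryonic fibroblasts at passage 2 in serum medium, and ESC were embryonic stem cells of a CBA/CaJ by C57BL/6J cross at passages 20 to 24. iPSC were induced pluripotent stem cells at passages 5 to 8, picked as colonies and, like ESC, kept in N2B27 with 2i and LIF, 2i being the pair of kinase inhibitors that includes one of MEK. OSK stood for MEF infected with retrovirus for Oct4, Sox2 and Klf4, sampled on days 0, 1, 3, 5 and 7. OSK+cJun added Jun, an AP-1 subunit, on days 0, 1, 3 and 7, and OSK+shSap30 added a lentiviral hairpin against Sap30, a Sin3 complex gene, on day 7. The infected cells grew in iCD1 or in ESC medium, and the labels do not say which for a given library. No library with a control hairpin was analysed here, and neither the number of lines nor the source of the 2 replicates is labelled, so p-values measure only the spread between libraries that may be technical.

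The deposited values are a normalised score forced to one distribution. At every rank the libraries agreed within 2, their totals ran from 4619641 to 4624161, and the highest value, 21544, was held by 10 genes in each. The next value down was 11677, so the top of the scale is coarse and bounded. Depth is unknown. In the checks of the labels, Jun was higher by a log2 fold of 3.27 (adjusted p = 2.1e-05) in OSK+cJun than in OSK on day 7, and Sap30 was lower by -3.51 (adjusted p = 1.33e-05) with the hairpin. Day 0 was not a state before the factors. Pou5f1, the Oct4 gene, stood at 11662 and 8974 in OSK day 0 against 2 and 0 in MEF. Jun was already 4616 and 5023 in OSK+cJun day 0 against 875 and 620 in OSK day 0. Changes from day 0, and the interaction below, thus start with these genes already expressed. The summed value of 10 fibroblast genes was 80240 and 83989 in MEF but only 170 and 640 in ESC, and that of 10 pluripotency genes was 27651 and 28550 in ESC against 34 and 8 in MEF. The first OSK day 5 library was the lowest OSK library for Pou5f1, Sox2 and Klf4. It had 656, 1792 and 3263, against 21544, 6116 and 11663 in the second. What this means for its other values was not tested. All tests are from limma on log2(value + 1), fitted to the 16038 genes that passed the filter and to all 26 libraries, and a gene is called at a Benjamini-Hochberg adjusted p below 0.05 and a log2 fold of 1 or more in size. Folds are log2 folds on that scale, which understates the changes of genes near 0, and n = 2 libraries per group throughout. The forced distribution sets the balance of higher and lower calls: scaled to 9 housekeeping genes instead, the share of called genes that were higher moved from 47.3% to 18.3% for OSK day 7 against day 0, from 52% to 33.3% for ESC against MEF, from 57.4% to 75.9% for added Jun on day 7 and from 50% to 68.2% for the hairpin. Under that scaling no called fold of the 6 tested genes changed sign, while 4 of their 90 folds, none of them called in either fit, did. Several comparisons share a group: ESC and iPSC share MEF, the later OSK days share OSK day 0, and the day 7 comparisons share OSK day 7.

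The genes lie apart on the GRCm38 (mm10) assembly, and each is annotated as protein coding. Gata4 (ENSMUSG00000021944) is at chr14:63198922-63271692 on the minus strand and Sox7 (ENSMUSG00000063060) at chr14:63943673-63950732 on the plus strand. Sox17 (ENSMUSG00000025902) is at chr1:4490931-4497354 on the minus strand and Dab2 (ENSMUSG00000022150) at chr15:6299788-6440712 on the plus strand. Lama1 (ENSMUSG00000032796) is at chr17:67697259-67822647 and Lamb1 (ENSMUSG00000002900) at chr12:31265234-31329644, both on the plus strand, and Lamc1 (ENSMUSG00000026478) is at chr1:153218922-153332786 on the minus strand. Gata6 is ENSMUSG00000005836. Values sum over the exons of a gene as the authors counted them. Strand is not marked by the kit the labels name, so reads of Gata6 and of the antisense gene 1010001N08Rik, which overlaps it and has its own row, cannot be told apart.

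The RefSeq promoter table (GRCm38.p6) has entries for Lamb1 and for 2 starts of Dab2, the genes whose courses differed between OSK and OSK+cJun by a test given below. A window of 250 bases before each RefSeq start was searched on both strands for 4 motifs. The AP-1 motif, the site of the factor that Jun belongs to, was TGANTCA. The GATA motif was AGATAA, or TGATAA in its place. The Sox motif was ACAATG. The GC box was GGGCGG. The sequences are printed 5′ to 3′ on the plus strand, up to the first base that GENCODE annotates as exon, with any match in capitals.
Lamb1, chr12:31265043-31265233: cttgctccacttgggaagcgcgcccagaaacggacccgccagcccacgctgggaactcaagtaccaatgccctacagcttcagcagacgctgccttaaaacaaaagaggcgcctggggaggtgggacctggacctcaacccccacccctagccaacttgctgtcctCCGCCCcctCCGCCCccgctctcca
Dab2 first start, chr15:6299539-6299787: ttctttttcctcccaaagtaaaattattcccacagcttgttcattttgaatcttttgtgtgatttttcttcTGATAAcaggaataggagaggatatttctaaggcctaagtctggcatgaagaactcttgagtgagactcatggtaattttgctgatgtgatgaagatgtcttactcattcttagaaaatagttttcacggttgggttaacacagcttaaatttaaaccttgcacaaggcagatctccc
Dab2 second start, chr15:6386498-6386597: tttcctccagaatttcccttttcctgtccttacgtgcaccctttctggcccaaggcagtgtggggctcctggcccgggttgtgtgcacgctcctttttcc
The Lamb1 window held 2 GC boxes, with first bases at -84 and -75 from the start, and 14 CpG at 62% GC. The first Dab2 window held 1 GATA match, at -179, and 2 CpG at 36.8% GC. The second held 17 CpG at 60% GC and no match to the 4 motifs. These windows held no AP-1 match. Over 32851 promoters of the same length, 6.75% held the AP-1 motif, 16.6% a GATA motif, 10.7% the Sox motif and 32.7% the GC box. A match describes letters only.

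Of the 4 transcription factor genes, Gata4, Sox7 and Sox17 were low in every group. The median of all genes was at least 61 in every library. Gata4, which acts after Gata6 in the endoderm and is also a heart gene, ran from 0 to 37, reached 10 in 6 of 26 libraries and was 0 in 4. Sox17 was 0 in 21 libraries and at most 5, with 5 and 2 in ESC, 5 and 1 in iPSC, and 4 and 0 with the Sap30 hairpin. Sox7 was 0 in 14 libraries and at most 8, and its highest pair, 6 and 8, was that of OSK+cJun day 0. Sox7 and Sox17 were thus below the filter value throughout, and Gata4 was so in most libraries. Gata6 was the only factor gene to exceed 40 in any library.

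Gata6, the factor at the head of the programme, was highest in the fibroblast groups. It stood at 173 and 29 in MEF, 57 and 52 in OSK day 0, 54 and 52 on day 1, 41 and 27 on day 3, 8 and 26 on day 5, and 23 and 12 on day 7. With added Jun it was 60 and 67, 65 and 54, 32 and 31, and 20 and 20 on days 0, 1, 3 and 7. The hairpin libraries had 17 and 31, iPSC 14 and 26, and ESC 8 and 7. The first OSK day 5 library, the one low in Pou5f1, Sox2 and Klf4, was the only other one as low as ESC. The 2 MEF libraries differed more from each other than those of any other group. In the first MEF library, with 173, the heart and mesothelium markers Tnnt2 and Wt1 stood at 150 and 115, against 3 and 8 in the second. That marker list of 10, of which 9 were in the table, summed to 499 and 117 in MEF, with Hand1 at 0 in both libraries. Its part in the Gata6 values was not tested.

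Gata6 was lower in ESC than in MEF by -3.09 (SE 0.62, adjusted p = 0.000413), in a comparison where 43% of all genes tested were called, and without the first MEF library it was lower by -1.82. It was lower in iPSC than in MEF by -1.84 (SE 0.62, adjusted p = 0.0196), where 40% were called. That iPSC call was lost without the first MEF library (-0.58) or without the first iPSC library (-1.42). In bulk RNA, fewer cells with a transcript and less of it per cell cannot be told apart. From OSK day 0 to day 7 Gata6 had a fold of -1.65 (SE 0.62, adjusted p = 0.051), which missed the threshold. Added Jun gave it no call at any day, with folds of -0.08 to 0.25, and the sign of the day 3 and day 7 folds changed when 1 OSK library was left out, as did that of day 3 when scaled to housekeeping genes.

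Gata4 stood at 37 and 8 in MEF, 11 and 9 in OSK day 0, 0 and 0 on day 5 and 3 and 0 on day 7, and recovered to 11 and 9 in iPSC and 15 and 8 in ESC. Its fold of -2.45 from OSK day 0 to day 7 (SE 0.75, adjusted p = 0.0178) and of 2.45 from OSK day 7 to iPSC (adjusted p = 0.0141) passed the test, while 23.8% and 30.3% of genes did so in these comparisons. Both rest on values of 11 or less. With 10 added in place of 1 the folds shrank to -0.81 and 0.81 and were no longer called. Without the second OSK day 7 library they were -1.45 and 1.45, and neither passed. The first call was also lost without either OSK day 0 library (-2.32 and -2.58) and the second without the first iPSC library (2.32).

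**Figure D1:**
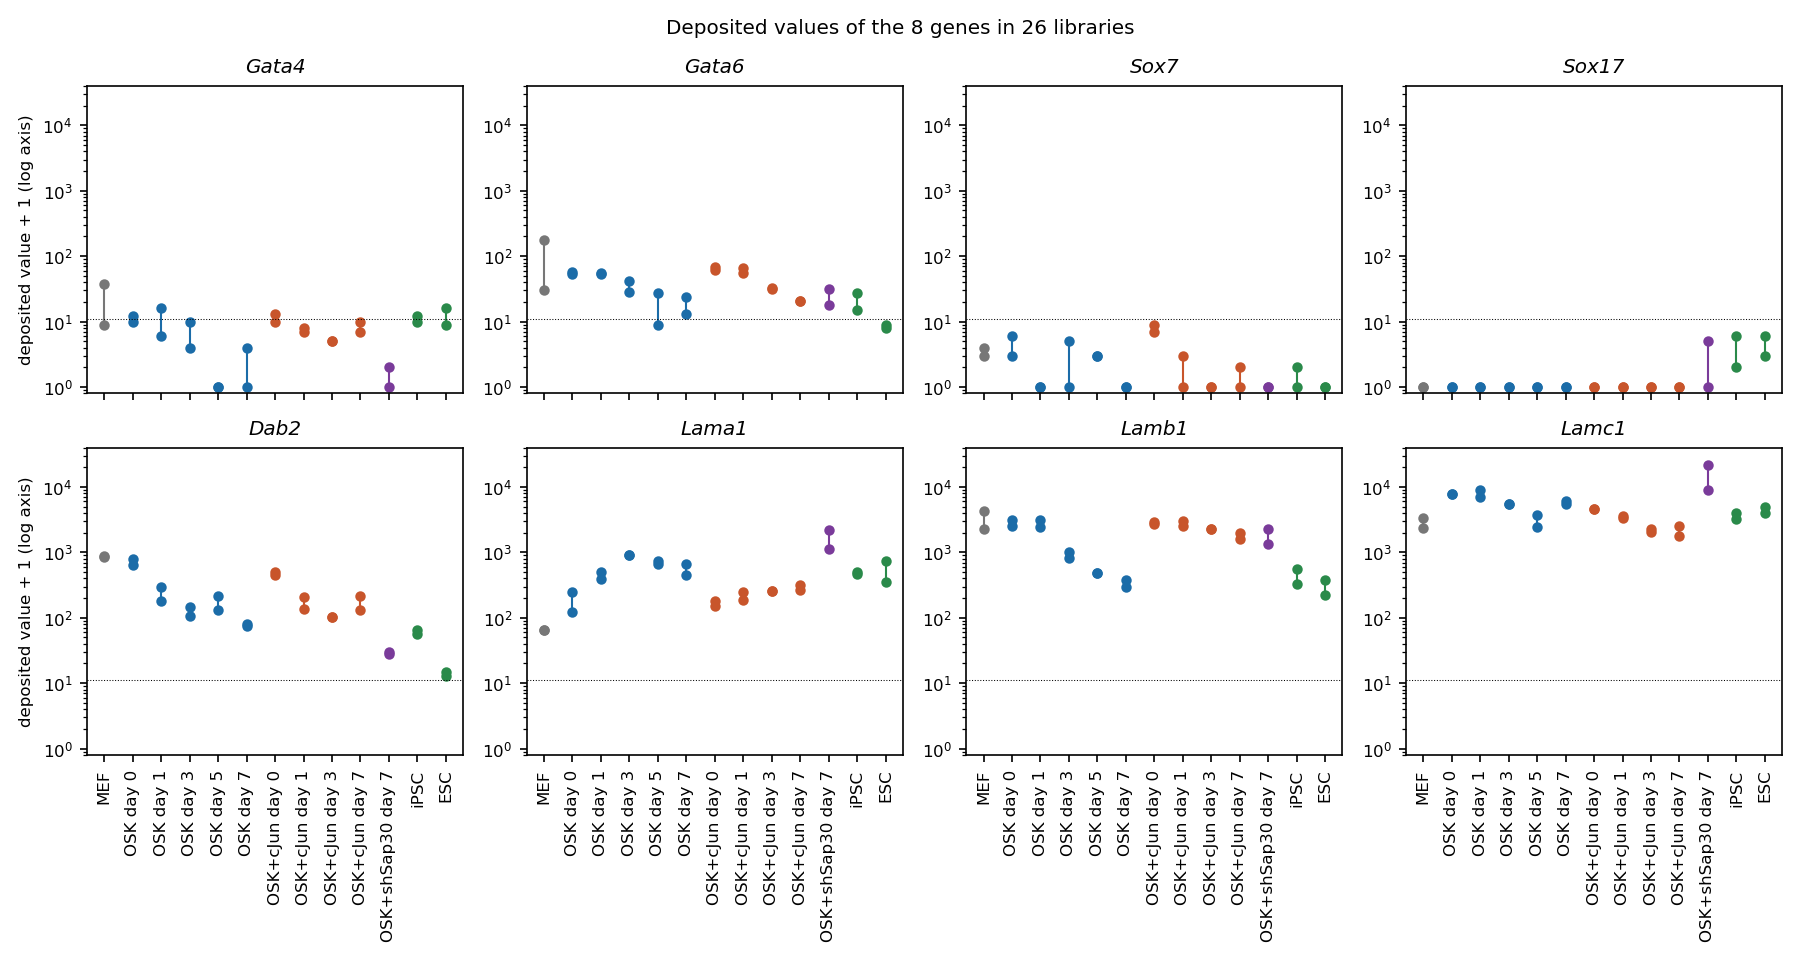
Deposited value plus 1 of each of the 8 genes (vertical axis, logarithmic, normalised score) in the 13 groups (horizontal axis); each point is 1 library, a line joins the 2 libraries of a group, and the dotted line marks the filter value of 10. Sox7 and Sox17 stay below the line in every library, Dab2 falls from 851 and 869 in MEF to 12 and 14 in ESC, and Lamc1 stays between 1795 and 21544.

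Dab2 encodes a clathrin adaptor that carries endocytic receptors as cargo and is needed for the surface position of endoderm cells. Its values were 851 and 869 in MEF, 793 and 650 in OSK day 0, 295 and 182 on day 1, 143 and 104 on day 3, 215 and 130 on day 5 and 75 and 78 on day 7. With added Jun they were 499 and 455 on day 0, 204 and 136 on day 1, 103 and 102 on day 3, and 130 and 211 on day 7. The hairpin group had 27 and 29, iPSC 56 and 64, and ESC 12 and 14. In the order of group means Dab2 was thus highest in MEF and lowest in ESC, and the libraries of the last 4 groups in that order, OSK day 7, iPSC, OSK+shSap30 and ESC, did not overlap with each other. The groups from OSK day 1 down to OSK day 3 in that order overlapped with their neighbours.

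Dab2 was lower in ESC than in MEF by -5.95 (SE 0.28, adjusted p = 2.73e-11) and in iPSC than in MEF by -3.82 (adjusted p = 1.55e-08). It was the only one of the 6 tested genes called between iPSC and ESC, higher in iPSC by 2.12 (SE 0.28, adjusted p = 7.54e-05), where 6.22% of all genes were called. The fibroblast marker list moved the same way: its sum was 7682 and 14212 in iPSC, well above the 170 and 640 of ESC, and 10 of its 10 genes were called higher. What part these markers have in the Dab2 value was not tested. Along OSK, Dab2 was already lower on day 1 by -1.63 (SE 0.28, adjusted p = 0.00162; 6.3% of genes called), by -2.55 on day 3 (adjusted p = 4.71e-06; 17.2% called) and by -3.21 on day 7 (SE 0.28, adjusted p = 2.48e-07). The fibroblast sum also went from 50696 and 59792 at OSK day 0 to 11977 and 11234 on day 7.

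With added Jun the decline of Dab2 to day 7 was smaller, from a lower day 0 value. Dab2 itself was not called with Jun on days 0, 1 and 3, with folds of -0.59, -0.47 and -0.25 against OSK. From day 0 to day 7 of OSK+cJun it fell by 1.52 (adjusted p = 0.000718; 17.7% of genes called), and the 2 courses differed by 1.70 (SE 0.40, adjusted p = 0.0248) in a test of the interaction that called 3.82% of genes. On day 7 Dab2 was higher with Jun by 1.10 (SE 0.28, adjusted p = 0.0126; 11.8% called), and the fibroblast sum was 36127 and 35361 there against 11977 and 11234. Most of that sum was Col1a2, at the ceiling of the scale, and Col3a1. The other 8 genes summed to 2906 and 2140 against 1994 and 1058, and 3 of the 10 were called higher. The interaction call was lost without 6 of the 8 single libraries, with folds of 1.35 to 1.76, and the day 7 call without either OSK library (1.08 and 1.13) or the second OSK+cJun library (0.76). With the Sap30 hairpin Dab2 was lower than in OSK day 7 by -1.42 (SE 0.28, adjusted p = 0.00357; 9.85% called), and the median fold of the fibroblast genes was 0.02. Their sum was 6536 and 7749, with Col1a2 at 3419 and 4318 against 6942 and 8993, while the 8 genes other than Col1a2 and Col3a1 summed to 1694 and 2008.

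Among 10 listed genes of DAB2 cargo and the clathrin machinery was Lrp2, the receptor megalin. It stood at 54 and 60 in MEF, 862 and 773 in OSK day 0, and 15 and 17 in OSK day 7. From day 0 to day 7 Lrp2 fell by 5.59 (adjusted p = 6.62e-07), and Lrp1, another receptor, fell by 2.43 (adjusted p = 2.02e-07). In all, 3 of the 10 fell and 0 rose from day 0 to day 7, where 12.6% of all genes fell, the other being the receptor chaperone gene Lrpap1. Scaled to housekeeping genes 5 of the 10 fell. The list's median fold was -0.29 against 0.06 for all genes. With the hairpin, where 4.93% of all genes rose, 2 rose, Lrp2 by 2.88 (adjusted p = 0.00234) to 99 and 154 and Lrp1 by 1.27 (adjusted p = 0.000939), in the direction opposite to Dab2. Scaled to housekeeping genes 4 rose. With Jun on day 7 Lrp1 rose by 1.49 (adjusted p = 0.000132).

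**Figure D2:**
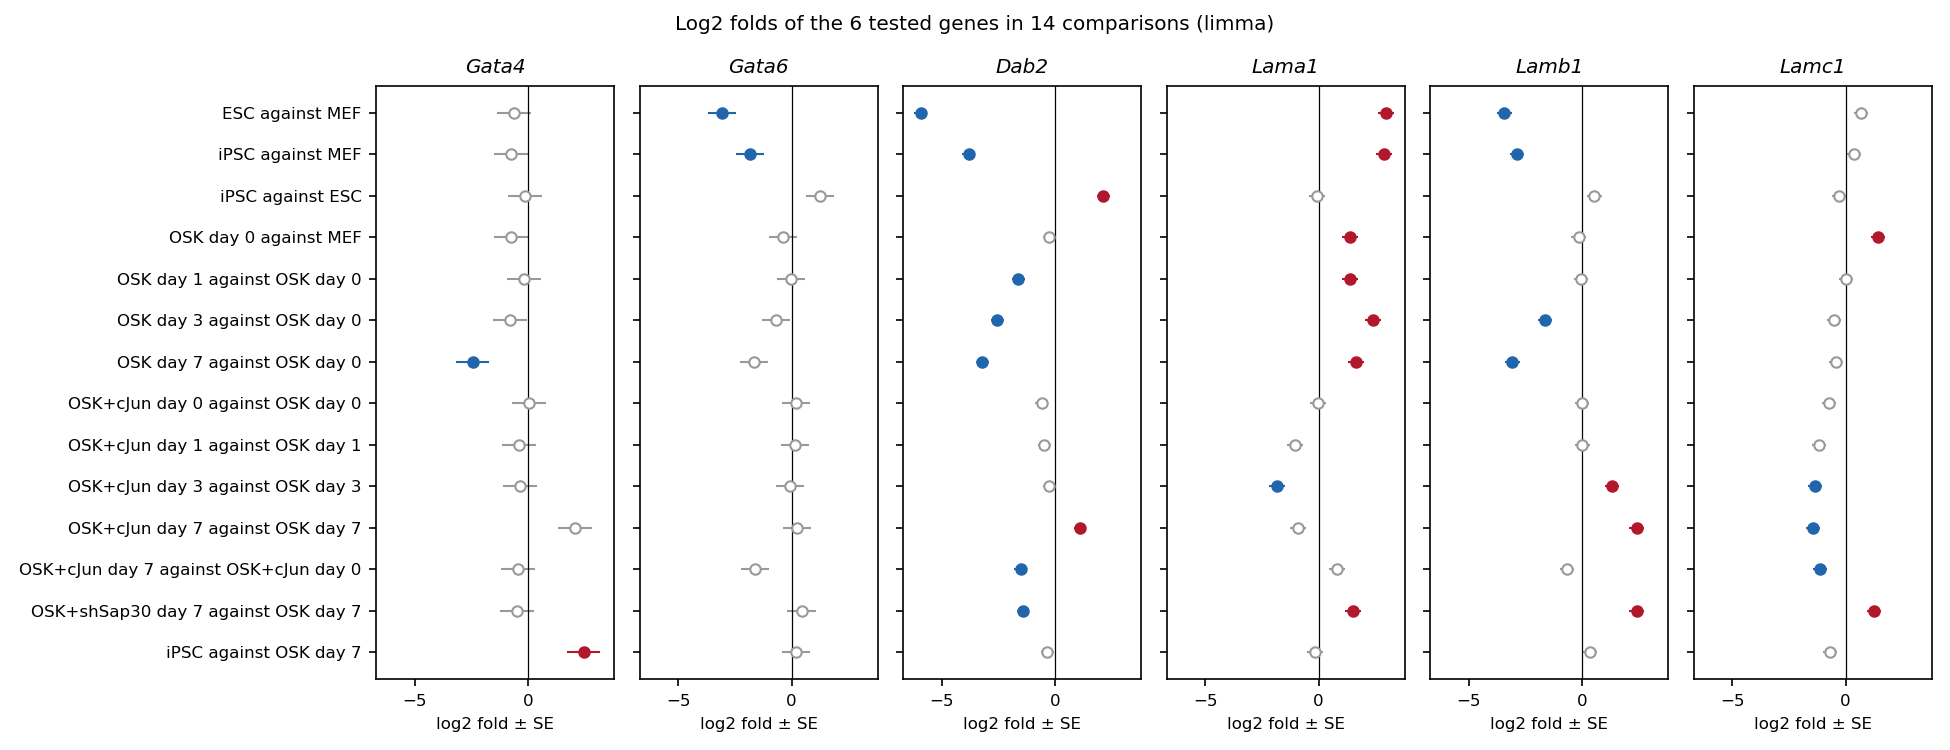
Log2 fold (horizontal axis) of the 6 tested genes in 14 comparisons (vertical axis); points are limma estimates, bars are standard errors, filled points passed the test, red for higher and blue for lower, and open points did not. Lama1 and Lamb1 lie on opposite sides of 0 in ESC against MEF (2.99 and -3.43), and both lie above 0 with the Sap30 hairpin (1.52 and 2.41).

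The 3 laminin chain genes did not move together. Lama1, for the α1 chain that is rare outside embryonic and some epithelial basement membranes, was 64 and 64 in MEF, 120 and 243 in OSK day 0, 392 and 506 on day 1, 896 and 914 on day 3, 663 and 749 on day 5 and 666 and 449 on day 7. With Jun it was 181 and 153, 187 and 249, 253 and 256, and 268 and 318 on days 0, 1, 3 and 7. It was 1122 and 2192 with the hairpin, 461 and 509 in iPSC and 354 and 749 in ESC. Both MEF libraries were lower than the other 24, and both hairpin libraries were higher. From day 1 on, every OSK library was above every OSK+cJun library.

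Lama1 rose from OSK day 0 to day 3 by 2.40 (SE 0.35, adjusted p = 8.24e-05) and to day 7 by 1.67 (SE 0.35, adjusted p = 0.00147). Scaled to housekeeping genes the day 7 fold was 0.96, under the threshold of 1. Its rise to day 1 of 1.38 (adjusted p = 0.0217) was not called without the first OSK day 0 library (0.87) or without either day 1 library (1.56 and 1.19). It was higher in ESC than in MEF by 2.99 (SE 0.35, adjusted p = 1.52e-06) and in iPSC than in MEF by 2.90 (adjusted p = 3.37e-06). OSK day 0 was itself above MEF for Lama1 by 1.40 (SE 0.35, adjusted p = 0.0172) and for Lamc1 by 1.45 (SE 0.31, adjusted p = 0.00578), where 6.98% of genes were called. The Lama1 difference was not called without either MEF library (1.40 each) or the second OSK day 0 library (0.90), nor that of Lamc1 without the second MEF library (1.18). Between iPSC and OSK day 7 and between iPSC and ESC, Lama1 was not called, with folds of -0.17 and -0.09 whose sign changed when 1 library was left out.

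Lamb1, for the β1 chain that most fibroblast laminins share, went the other way. It was 2310 and 4308 in MEF, 2542 and 3155 in OSK day 0, 2406 and 3154 on day 1, 1010 and 832 on day 3, 485 and 486 on day 5 and 376 and 296 on day 7. It ended at 331 and 549 in iPSC and 225 and 376 in ESC. The first drop came after day 1, since days 0 and 1 overlapped while days 1, 3, 5 and 7 did not. Lamb1 fell by 1.63 from day 0 to day 3 (SE 0.32, adjusted p = 0.00107) and by 3.08 to day 7 (SE 0.32, adjusted p = 1.2e-06). It was lower in ESC than in MEF by -3.43 (adjusted p = 7.87e-08) and in iPSC than in MEF by -2.88 (adjusted p = 1.1e-06).

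Lamc1, for the γ1 chain found in most laminins, was high in every group. It was 3410 and 2356 in MEF, 7721 and 7721 in OSK day 0, 6929 and 8981 on day 1, 5489 and 5488 on day 3, 2468 and 3774 on day 5 and 6124 and 5489 on day 7. It was 4013 and 3270 in iPSC and 4013 and 5023 in ESC. Its folds from day 0 to days 1, 3 and 7 of OSK and between ESC and MEF (0.66, adjusted p = 0.0808) did not pass the test. Both day 5 libraries lay below every other OSK library, the first being the one low in Pou5f1, Sox2 and Klf4. Day 5 was not compared by a test. Equal values in paired libraries, such as 7721 and 7721, are steps of the coarse upper scale.

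Per kilobase of the longest annotated transcript, a scale on which levels of different genes can be set side by side, the 3 chain genes were furthest apart in MEF, at means of 6.72 for Lama1, 572 for Lamb1 and 378 for Lamc1. In ESC they were 57.9, 52.0 and 593. Lama1 per kilobase was 0.0129 of Lamb1 in MEF, 0.0377 in OSK day 0, 0.603 on day 3 and 0.998 on day 7, and it was 1.08 in ESC. With Jun the ratio was only 0.102 on day 7, with 0.0818 and 0.122 in the 2 libraries, against 1.08 and 0.921 in OSK. Lamc1 stayed above both in each of the reprogramming and pluripotent groups apart from the OSK+cJun groups on days 1, 3 and 7, where Lamb1 per kilobase was 1.04, 1.39 and 1.10 of it. The sources used here do not say whether the values were already divided by length, so these ratios hold only if they were not.

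**Figure D3:**
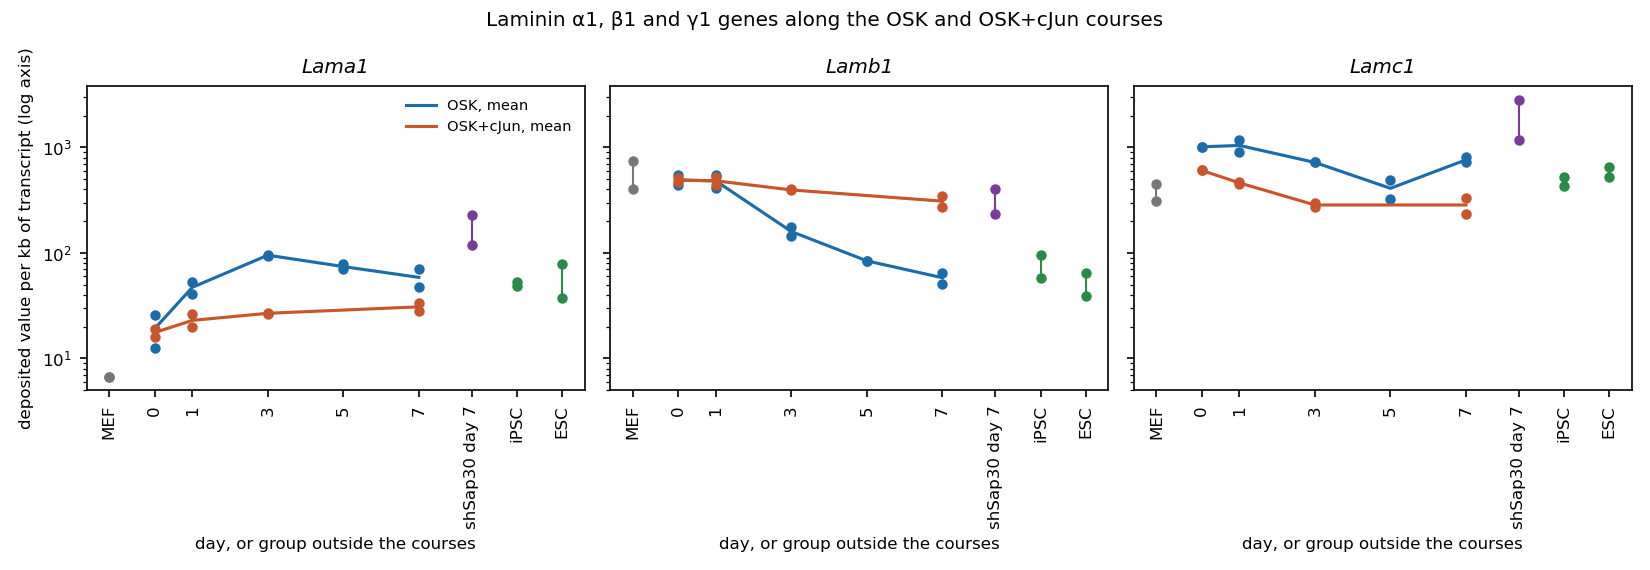
Deposited value per kilobase of transcript (vertical axis, logarithmic) of Lama1, Lamb1 and Lamc1 by day (horizontal axis) in OSK (blue) and OSK+cJun (orange), with MEF, OSK+shSap30 day 7, iPSC and ESC at the sides; points are libraries and lines join group means. The courses of Lamb1 start together on day 0 and separate by day 3, and those of Lama1 separate from day 1.

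The makeup of the α and β chain families was compared. Among α chain genes per kilobase, Lama4, the main endothelial and mesenchymal α chain, made up a mean of 75.6% in MEF, but 11.9% in iPSC and 1.63% in ESC. Along OSK its share was 56.4% on day 0, 87.1% on day 1, 86.7% on day 3, 78.0% on day 5 and 56.6% on day 7. Lama5, the broad epithelial α chain, made up 9.56% in MEF, 28.9% in OSK day 7, 49.3% in iPSC and 65.2% in ESC. Lama1 itself was 2.16% of the family in MEF, 11.1% in OSK day 7, 27.8% in iPSC and 27.1% in ESC. Lama1 was thus the lesser of the 2 leading α genes in ESC and iPSC. Among β chain genes Lamb1 went from 77.2% in MEF to 25.8% in OSK day 7, where Lamb2 held 70.2%, and it was 47.9% in iPSC and 49.5% in ESC.

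Among other laminin genes, in ESC against MEF, Lama4 fell by 6.16 (adjusted p = 6.52e-10), Lamb2 fell by 1.63 (adjusted p = 1.09e-08) and Lama5 rose by 2.20 (adjusted p = 1.5e-05). From OSK day 0 to day 7, Lama5 rose by 1.93 (adjusted p = 0.000156) and Lama2 fell by 5.08 (adjusted p = 1.54e-05). Lama2, the muscle and mesenchymal α2 chain, stood at 3162 and 3617 in OSK day 0, 440 and 281 in MEF and 114 and 86 in OSK day 7.

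**Figure D4:**
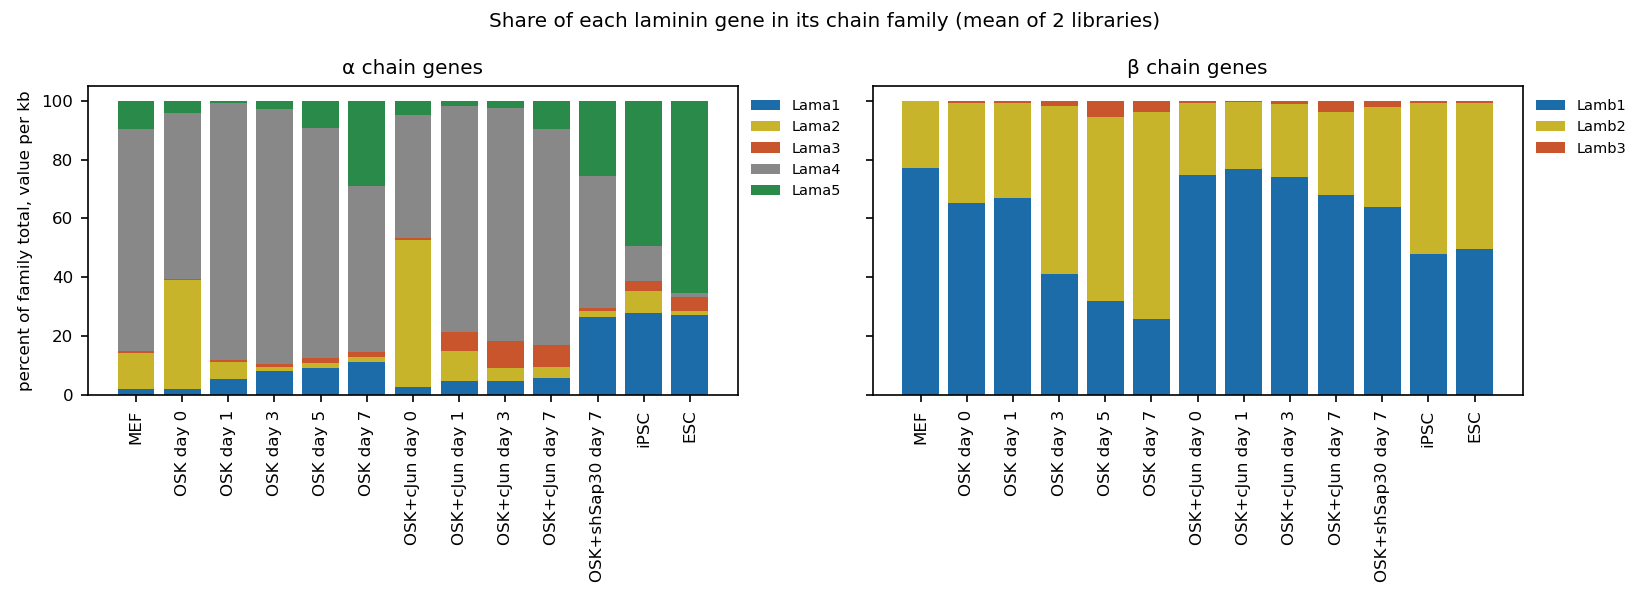
Share of each gene in the summed value per kilobase of its chain family (vertical axis, percent, mean of 2 libraries) in the 13 groups, for α chain genes on the left and β chain genes on the right. Lama4 holds 75.6% of the α family in MEF and 1.63% in ESC, and Lamb1 holds 25.8% of the β family in OSK day 7 against 67.8% in OSK+cJun day 7.

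Comparing OSK+cJun with OSK on the same day asks what added Jun, which is known to impede reprogramming, did to these genes. On day 0 none of the 6 was called by limma, with 1 at an unadjusted p below 0.05, and 0.0748% of all genes were called. On day 1 none was called either, with 2 at an unadjusted p below 0.05, and 1.98% of genes were called: Lamc1 had a fold of -1.17 (SE 0.31, adjusted p = 0.0587) and Lama1 of -1.04 (adjusted p = 0.162). On day 3, 3 of the 6 were called where 7.54% of genes were. Lama1 was lower with Jun by -1.83 (SE 0.35, adjusted p = 0.00261) and Lamc1 by -1.34 (SE 0.31, adjusted p = 0.00953), while Lamb1 was higher by 1.32 (SE 0.32, adjusted p = 0.0126).

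On day 7 the pattern widened for Lamb1. It stood at 1990 and 1588 with Jun against 376 and 296 without, higher by 2.41 (SE 0.32, adjusted p = 7.5e-05), and both values lay below those of the earlier days with Jun, 2714 and 2942, 2542 and 3034, and 2260 and 2310. The interaction of Jun with the change from day 0 to day 7 was 2.41 for Lamb1 (SE 0.45, adjusted p = 0.00688), and within OSK+cJun Lamb1 had a fold of -0.67 (adjusted p = 0.151). Lamc1 was 4616 and 4616, 3411 and 3611, 2076 and 2260, and 2542 and 1795 with Jun. It was lower than in OSK on day 7 by -1.44 (SE 0.31, adjusted p = 0.00398) and fell within OSK+cJun by 1.11 from day 0 (adjusted p = 0.0144), but its interaction, -0.70 (adjusted p = 0.436), was not called. Lama1 on day 7 had a fold of -0.90 (adjusted p = 0.093), and its interaction was -0.87 (adjusted p = 0.389).

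Single libraries decided some of these calls. On day 3 the Lamb1 call was lost without the second OSK library (1.18) or either OSK+cJun library (1.33 and 1.30), and the Lamc1 call without either OSK library (-1.34 each) or the first OSK+cJun library (-1.28). The fall of Lamc1 within OSK+cJun was not called without either day 0 library (-1.11 each) or the second day 7 library (-0.86). Lama1 on day 3 and Lamb1 on day 7 were called in every refit without 1 library. The marker lists also differed between the arms on day 7: with Jun the pluripotency sum was 245 and 146 against 2064 and 1602, and that of the heart and mesothelium list was 3235 and 3469 against 423 and 398, nearly all of it Msln (3154 and 3410), while Tnnt2 was at 0 and 1. Their part in the laminin values was not tested.

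Of 12 laminin receptor and binding genes, 4 rose with Jun on day 7 and 0 fell, where 6.76% of all genes rose, with a median fold of 0.79 against -0.05 for all genes. Itga7, an α subunit of laminin integrins, rose by 3.40 (adjusted p = 6.14e-05) and Itga6, another, by 2.43 (adjusted p = 0.00142). Itgb1, their shared β subunit, rose by 2.02 (adjusted p = 0.000139) and Itgb4 by 1.24 (adjusted p = 0.0388). Itga6 stood at 3154 and 3154 with Jun against 676 and 505 in OSK, and was already 7721 and 7721 at OSK+cJun day 1 against 1769 and 1419 at OSK day 1. Itgb1 read 11662 and 21544 with Jun on day 7, the latter being the highest value of the scale. Lama5 was lower with Jun by -1.51 (adjusted p = 0.00328).

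With the Sap30 hairpin Lama1, Lamb1 and Lamc1 were all higher than in OSK on day 7. Whether the hairpin libraries were made or sequenced with the OSK day 7 libraries is not labelled. A difference between such sets cannot be told apart from the hairpin, here and in the other hairpin results. Lama1 stood at 1122 and 2192 against 666 and 449 in OSK day 7, Lamb1 at 1365 and 2310 against 376 and 296, and Lamc1 at 8981 and 21544 against 6124 and 5489. No hairpin library overlapped with an OSK day 7 library for any of these 3 genes. The share of all genes without such overlap was not counted, here or for the library orders above. Such an order adds no support to a call. Lamb1 was higher by 2.41 (SE 0.32, adjusted p = 0.000205), Lama1 by 1.52 (SE 0.35, adjusted p = 0.00908) and Lamc1 by 1.26 (SE 0.31, adjusted p = 0.0123). With Dab2, 4 of the 6 tested genes were called where 9.85% of all genes were. Among the 7 other laminin genes tested 0 were called, with a median fold of 0.12 against -0.01 for all genes. Of the 10 pluripotency genes 4 were called lower with the hairpin (Nanog, Zfp42, Dppa5a and Dppa4), with a median fold of -1.60, and their part in the laminin values was not tested. The second hairpin library was the higher for all 3, and its Lamc1 value is the ceiling of the scale. Without it Lama1 had a fold of 1.04 and Lamc1 of 0.63, and neither was called. Without the second OSK day 7 library they were 1.23 and 1.18, also not called, while Lamb1 and Dab2 were called without any 1 library. When only the 4 libraries compared were fitted, limma called 0 genes of any kind, with 3276 at an unadjusted p below 0.05, so these calls rest on the spread estimated over all groups.

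Other basement membrane genes rose with the hairpin as well. Of 18 listed, 7 rose and 0 fell, where 4.93% of all genes rose, and the median fold was 1.29 against -0.01 for all genes. Col4a1, a chain of the main collagen IV trimer, stood at 11672 and 11672 against 3415 and 3158 and rose by 1.83 (SE 0.24, adjusted p = 0.000205). Nid1, the nidogen that links laminin to collagen IV, stood at 1363 and 3269 against 572 and 277 and rose by 2.40 (SE 0.47, adjusted p = 0.00318). Hspg2, the perlecan gene, rose by 1.22 (adjusted p = 0.00503) and Col4a6 by 1.70 (adjusted p = 0.00567). Sparc, a collagen-binding matrix protein abundant in parietal endoderm, rose by 1.32 (adjusted p = 0.0438), and Col4a2 had a fold of 1.26 that was not called.

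**Figure D5:**
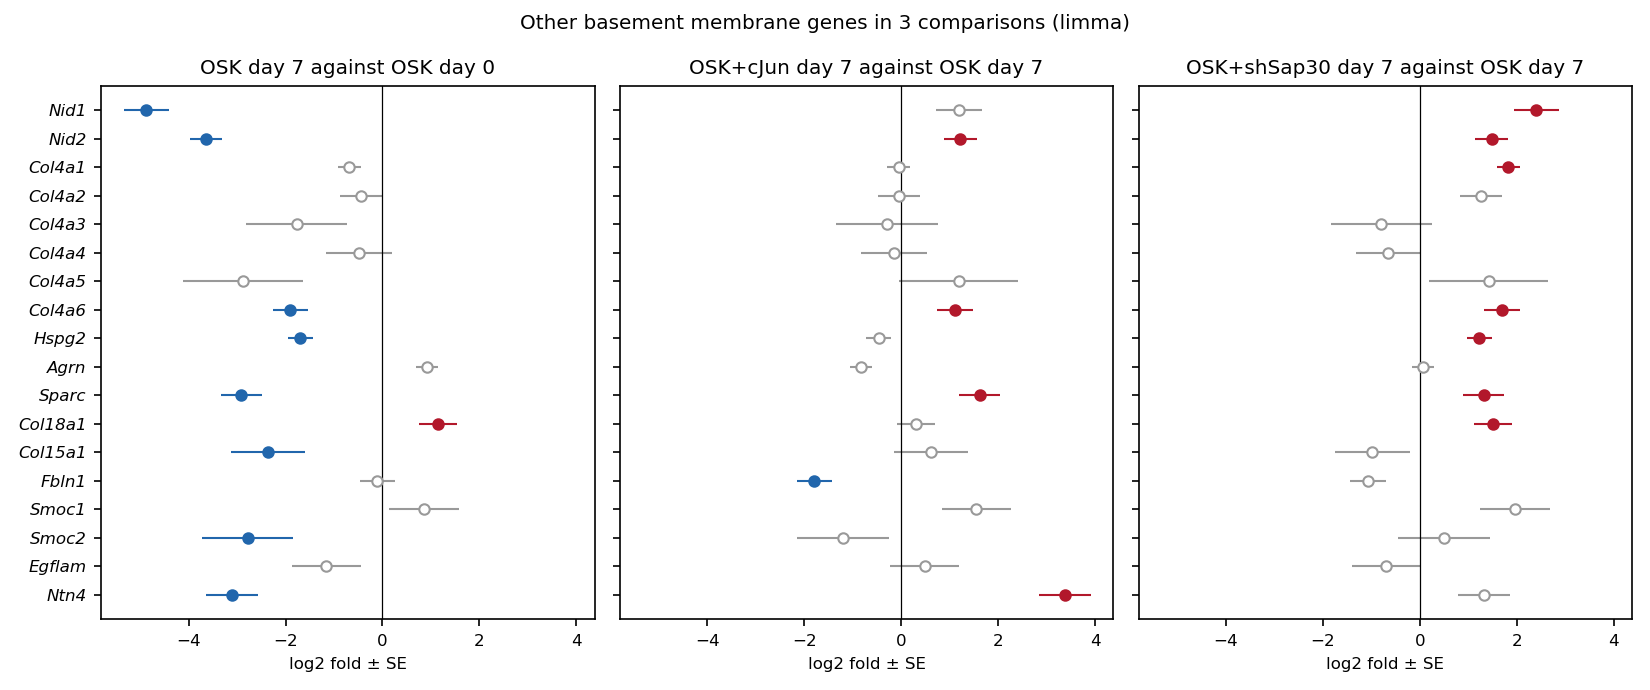
Log2 fold (horizontal axis, limma estimate with its standard error) of 18 other basement membrane genes (vertical axis) in 3 comparisons; filled points passed the test, red for higher and blue for lower. From OSK day 0 to day 7, 8 genes fell and 1 rose, and with the Sap30 hairpin 7 rose and 0 fell.

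Along OSK the same list went mostly down: 8 of 18 fell and 1 rose from day 0 to day 7, where 12.6% of all genes fell, with a median fold of -1.73. The folds were -3.65 for Nid2 (adjusted p = 3.46e-07), -4.87 for Nid1 (adjusted p = 7.45e-07), -2.91 for Sparc (adjusted p = 4.73e-05) and -1.69 for Hspg2 (adjusted p = 7.32e-05). Scaled to housekeeping genes, 12 fell and 0 rose. Over the same days 8 of the 10 fibroblast genes fell, with a median fold of -2.67, and their part in the list was not tested. Lama1 rose over these days. Between ESC and MEF 12 fell and 1 rose, where 20.6% of all genes were lower, with Col4a1 lower by -8.05 (adjusted p = 2.07e-13), at 18 and 22 against 6129 and 5030, and Col4a2 by -7.73 (adjusted p = 2.18e-10). Nid1 stood at 2355 and 2797 in ESC. In iPSC Col4a1 was at 364 and 535 and was higher than in ESC by 4.40 (SE 0.24, adjusted p = 1.74e-09), as 4 of the 18 were, where 4.57% of all genes were higher, and 0 were lower. All 10 fibroblast genes were higher in iPSC too, with a median fold of 4.61.

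The wider endoderm list of 40 genes, which shares several members with the basement membrane and DAB2 cargo lists, had 28 that were tested. From OSK day 0 to day 7, 12 fell and 8 rose, where 12.6% of all genes fell and 11.3% rose, and scaled to housekeeping genes 17 fell and 7 rose. Those that fell included Pdgfra, an early endoderm receptor that fibroblasts also express, by 4.08 (adjusted p = 6.03e-06). With the hairpin 8 rose and 0 fell, where 4.93% of all genes rose, with a median fold of 0.73 against -0.01 for all genes, and all of the 4 with the smallest adjusted p, Col4a1, Lrp2, Nid1 and Hspg2, were matrix or cargo receptor genes already described. With Jun on day 7, 5 rose and 4 fell, where 6.76% of all genes rose and 5.03% fell, and scaled to housekeeping genes 7 rose and 3 fell. Some listed genes, named here for their low values, were at or near 0: Apoa1 and the factor gene Gata5 were at 0 in all 26 libraries, Ttr at most 1, Amn at most 4, Afp at most 7 and Foxa2 at most 10. The factor gene Hnf4a was at most 15, its value in an iPSC library. Other genes of the list were expressed: the receptor gene Cubn reached 225, Lrp2 862 and the keratin gene Krt8 1860.

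Of 14 genes of FGF and ERK signalling, which lies upstream of Gata6 in the embryo, 2 rose and 6 fell between ESC and MEF, where 22.4% of all genes rose and 20.6% fell, with Dusp6, an ERK target, lower by -4.62 (adjusted p = 5.3e-08) and Fgf4 higher by 10.39 (adjusted p = 2.14e-07). ESC and iPSC were both kept in 2i, and Dusp6 was higher in iPSC, at 121 and 100, than in ESC, at 10 and 10, by 3.34 (adjusted p = 3.28e-05), as were Spry2 and Spry4, which encode inhibitors of the pathway. All 10 fibroblast genes were higher in that comparison too. In MEF, Dusp6 stood at 320 and 227, Spry2 at 241 and 337 and Spry4 at 121 and 94. The part of the fibroblast genes in these values was not tested. From OSK day 0 to day 7, Etv5 rose by 1.81 (adjusted p = 5.06e-06) and Fgfr2 fell by 1.27 (adjusted p = 0.017). With Jun on day 7 and with the hairpin none of the 14 was called by limma, where 11.8% and 9.85% of all genes were. A list of 14 is too short to read that as a lack of change. Of 7 other GATA and SoxF family or cofactor genes 4 were tested, and Gata3, a trophoblast and epithelial factor, rose by 3.25 with Jun on day 7 (adjusted p = 0.00207), at 80 and 94 against 16 and 4.

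The genes whose pattern was most like each of the 6 tested were found by Pearson's r over the 13 group means of log2(value + 1), which share their libraries. For Gata6 they were Steap2 (0.969), Cdh11 (0.958) and Sav1 (0.958), and for Dab2 Ikzf2 (0.964), Loxl3 (0.963) and Hist1h1c (0.956). For Lamb1 they were Cttnbp2nl (0.972), Slc12a4 (0.965) and Vasn (0.960). For Lama1 they were Fmn2 (0.924), Mpzl2 (0.916) and E2f2 (0.913), and for Gata4 Eepd1 (0.941), Nicn1 (0.929) and Smarca1 (0.916). Lamc1 had no such close match: the best were Psrc1 (0.847), Slc25a42 (0.844) and Gramd1a (0.843). Among the 6 themselves r was highest for Gata6 with Lamb1 (0.875) and Gata6 with Dab2 (0.817), and lowest for Dab2 with Lama1 (-0.743). Lama1 had r of -0.559 with Lamb1 and 0.485 with Lamc1, so over these groups none of the 3 chain genes of the trimer followed another closely.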

How the data were processed

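Per the labels' protocols, TRIzol RNA was made into TruSeq RNA libraries for a NextSeq 500 run. The submitters' processing notes name the tools bcl2fastq, RSEM and Bowtie2 and the build mm10, without versions. The deposited values are a score normalised by the authors, and the normalisation step is not given in the sources used here. Ensembl IDs were matched to symbols for 18039 of 18198 genes, and 0 sample columns were left unused. The design foresaw such a normalised unit. Groups came from the titles.

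The members and gene lists were chosen with earlier results of these data known, so no list is independent support. Two-sided tests came from limma 3.58.1 in R 4.3.3 (trend, robust, statmod 1.5.0), with 1 mean per group and no replicate block, and were tested on simulated data. Figures were drawn with matplotlib 3.10.9. The genes named are the 8, checks of the labels, Pdgfra, Sparc, Col4a1, Col4a2 and Nid1, up to 4 called genes per list with the smallest adjusted p, and the 3 most alike. Other genes named (Tnnt2, Wt1, Msln, Hand1, the endoderm genes near 0, Cubn, Krt8, Hnf4a, Lama2, Gata3, Lrpap1, Sox2 and Klf4 among them) were picked after their values were seen. Results of some listed genes are not reported here. Alternatives were another added constant (10), no filter, only the libraries compared, a replicate block (over all groups or, added after seeing the data, in the OSK and OSK+cJun courses), centring on 9 housekeeping genes, and leaving out each library.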

Additional observations from a re-analysis of the deposited data

Results flagged for a closer look

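Lamb1 changed over days 0 to 7 differently in the 2 courses, OSK+cJun minus OSK being 2.41 (SE 0.45, limma adjusted p = 0.00688) in a test of the difference itself. Lamb1 was lower at day 7 in both of 2 OSK libraries than in either at day 0, by a fold of -3.08, and in both of 2 OSK+cJun libraries by -0.67. The call was kept under all 14 alternatives, with differences of 2.24 to 2.81 and adjusted p of 0.00257 to 0.0408.

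The change of Dab2 over the same days differed between the courses by 1.70 (SE 0.40, limma adjusted p = 0.0248), from folds of -3.21 in OSK and -1.52 in OSK+cJun. It was called under 7 of 14 alternatives, with differences of 1.35 to 2.10 and adjusted p of 0.00446 to 0.0973.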

How the results depend on the processing

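No called fold of the 6 tested genes changed sign in a refit, but 25 of their 90 folds, called in neither fit, did in at least 1. Over all 888 pairs of a fold and a refit, 38 changed sign. A smaller set held the folds called in at least 1 fit and some others followed by name. In that set 444 refits kept the call or its absence, 57 lost it, 11 gained it and 5 changed sign. Gata6 with Jun at day 3 was 0.11 when centred on housekeeping genes and -0.37 to 0.21 without 1 OSK library, and at day 7 -0.19 to 0.69. Lama1 was -0.63 to 0.45 for iPSC against ESC without 1 ESC library and -0.46 to 0.11 for iPSC against OSK day 7 without 1 OSK library. Where a refit ended a call, the cause was not tested, except that fewer libraries were fitted. With only the libraries compared, limma called 376 genes for iPSC against ESC, 0 genes and 0 members for OSK day 0 against MEF (2499 genes at an unadjusted p below 0.05), 53 and 0 for OSK day 1 against day 0, 2 members for day 7 against day 0, 0 members for iPSC against OSK day 7, 541 genes and 1 member for OSK+cJun against OSK at day 7, 0 and 0 for the hairpin (3276 unadjusted), and 331 and 1 for the interaction. At days 0 and 1 OSK+cJun against OSK gave 0 genes each (984 and 2161 unadjusted). That fit ended the calls of Gata6 in ESC and iPSC against MEF, Lama1 and Lamc1 on OSK day 0 against MEF, Dab2 on OSK day 1, Lama1 on days 1 and 7 and Gata4 on day 7 against day 0, Dab2 and Lamc1 with Jun on day 7, Lamc1 within OSK+cJun, and the Dab2 interaction. Centring on housekeeping genes moved the median of all genes from 0.06 to -0.66 for OSK day 7 against day 0. It called 1783 genes and 1 member for OSK day 1 against day 0 and 1054 genes for the interaction, and it added Gata6 (-2.37) and Lamc1 (-1.13) but dropped Lama1 for OSK day 7 (0.96) and day 1 (0.92) against day 0. Adding 10 gave 0 members for iPSC against OSK day 7, 23 genes for OSK+cJun against OSK at day 0 and 1 member at day 1. Without the filter, limma called 2 members for iPSC against OSK day 7 and 6 for ESC against MEF. Sox7 and Sox17 were among these 6, at values of 5 or less in both groups.

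Without 1 library at a time, genes and members called ran from 6196 to 7005 and 4 to 4 for ESC against MEF, 5407 to 6561 and 3 to 4 for iPSC against MEF, 536 to 872 and 1 to 1 for iPSC against ESC, 629 to 1349 and 0 to 2 for OSK day 0 against MEF, 396 to 724 and 1 to 2 for OSK day 1, 2045 to 2448 and 3 to 3 for day 3 and 2999 to 3556 and 3 to 4 for day 7 against day 0, and 4002 to 4677 and 0 to 1 for iPSC against OSK day 7. For OSK+cJun against OSK they were 1 to 12 and 0 to 0 at day 0, 52 to 160 and 0 to 0 at day 1, 717 to 810 and 1 to 2 at day 3 and 1046 to 1741 and 2 to 3 at day 7. They were 2206 to 2313 and 1 to 2 within OSK+cJun, 512 to 1787 and 2 to 4 for the hairpin and 208 to 645 and 1 to 2 for the interaction. A lone library is assumed to vary like the other groups.

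The labels do not say what a replicate number shares. The correlation of the deviations of same-numbered libraries was 0.192 to 0.331 for the 28 pairs among the 8 groups of OSK and OSK+cJun on days 0, 1, 3 and 7, and -0.0883 to 0.0953 for the other 50 pairs, a hint from the data and not the design. A replicate block over all groups changed 1 call: Gata4 at day 7 was called with Jun against OSK (2.06, adjusted p = 0.0365, against a range of 0.0232 to 0.51 over all alternatives). A replicate block in those 8 groups alone, chosen after seeing the data, made the same call and added Gata6 for OSK day 7 against day 0 (adjusted p = 0.0477, range 0.00379 to 0.29) and Lamc1 with Jun at day 1 (adjusted p = 0.0494, range 0.047 to 0.451), where 1 member was called. It called 21 genes with Jun at day 0 and 930 for the interaction. Main counts were 998, 1120, 1010, 12, 318, 1890, 1579 and 613 genes for iPSC against ESC, OSK day 0 against MEF, OSK day 1 against day 0, Jun at days 0, 1 and 7, the hairpin and the interaction. Depth is unknown, and the ceiling of the scale limits Lamc1.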
